A study of Mus musculus with 8 samples.

Results

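The genes examined here mark the macrophages of the liver and the inflammatory programmes those cells run. A list of 42 genes was taken by name from the count table, and all 42 were found among its 33212 genes, Adgre1 under its older name Emr1. They were divided by known role into 6 genes of resident Kupffer cells, 7 general macrophage genes, 3 genes of complement C1q, 4 genes of MHC class II antigen presentation, 5 genes of lipid-associated macrophages, 4 genes of signalling adaptors and the leukocyte surface, 5 genes of recruited monocytes and neutrophils, 2 scavenger and mannose receptors, and 6 inflammatory sensors and cytokines.

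Kupffer cells are the macrophages that live in the sinusoids of the liver, where they clear particles, lipids and old red cells from the blood. When the liver is injured by fat, some of these cells can be lost, and monocytes from the blood enter and take on macrophage identities of their own. Macrophages that gather around fat-laden hepatocytes carry a programme named for lipid handling, of which Trem2, Gpnmb and Cd9 are well-known marks. A diet without methionine and choline is a standard way to bring about fatty liver with inflammation in mice.

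RNA was sequenced from the liver of 4 Nnmt LKO mice and 4 control mice, 1 library per mouse, to see what hepatocyte NNMT does in diet-induced liver damage. Nnmt LKO mice carried Alb-Cre and Nnmt flox/flox, and control mice, labelled WT in the repository, carried Nnmt flox/flox alone. All were male mice on the C57BL/6 strain and all ate a diet free of methionine and choline (MCD) over 8 weeks, so that no liver without this diet was compared; an age was not given in the sources used here. Alb-Cre acts through the albumin promoter in hepatocytes, so the macrophages of Nnmt LKO mice were not themselves the target of the deletion.

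Libraries bear letters (a to d) in the order of the table's columns, separately for each genotype, and the letters pair no mice. Total counts lay between 75020072 and 87934362 per library, at which 3 counts correspond to at most 0.0418 CPM (a count over the library total, scaled by TMM, which equalizes the bulk of genes between libraries). Nnmt itself averaged 57.1 ± 23.1 CPM in Nnmt LKO livers and 139 ± 60.5 CPM in control livers (SD, n = 4 each), without overlap between the libraries (edgeR, adjusted p = 0.123). The nearest were Nnmt LKO d at 83.0 CPM and control d at 84.9 CPM, so control d, on which results below depend, had the lowest Nnmt level of its genotype. Library a of the Nnmt LKO mice stood apart from the other libraries in its TMM factor, which was 1.21 against 0.876 to 1.06 in the other 7, and its hepatocyte gene Alb had the lowest level of the 8 at 48501 CPM against 58216 to 89473 CPM. Results that rest on this library are given with and without it.

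All 42 genes had enough counts to be tested, and the genes that define Kupffer cells, Clec4f, Vsig4 and Timd4, were read in every library. Per kilobase of merged exon, the highest mean levels over the 8 libraries were those of Lyz2 at 213 CPM, Cd74 at 137 CPM and C1qb at 100.4 CPM. The lowest were those of Tlr4 at 0.288 CPM per kilobase and Ptprc at 0.453 CPM per kilobase. Several of the genes are also used by other liver cells: Cd9, Cd63 and Lgals3 by bile duct cells, Tlr4 by stellate and endothelial cells, and Ptprc by every leukocyte. In RNA from whole liver, fewer cells of a type cannot be told apart from less RNA per cell.

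None of the 42 genes passed an adjusted p of 0.05 between genotypes in the quasi-likelihood test of edgeR (Benjamini-Hochberg adjustment over 15291 genes), as 0.32% of all genes did. At an unadjusted p of 0.05, edgeR called 0 of the 42 higher in Nnmt LKO mice (5.45% of all genes) and 0 lower (7.13% of all genes). With scaling by library size only, those shares of all genes were 5.35% and 4.05%, and 1 of the 42, Cd163, was called higher. DESeq2's Wald test called 0 of the 42 at an adjusted p of 0.05 (3.32% of all genes), 2 higher at an unadjusted p of 0.05 (6.65% of all genes), Marco and Cd163, and 0 lower (7.59% of all genes).

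The libraries of the genotypes overlapped for all 42 genes, while they did not for 8.16% of all genes tested. In edgeR's fit, 30 of the 42 genes lay above control and 12 below, and the median log2 fold change was 0.11, against 0.02 over all genes, 52.3% of which lay above control. The log2 fold changes ran from -0.46 for Lgals3 to 0.75 for Cd163. Their standard errors lay between 0.14 and 0.58, with a median of 0.28 against 0.18 over all genes, so the median of the 42 was compared less precisely than the median gene, although the 3 C1q and 4 MHC class II genes had standard errors of 0.14 to 0.18.

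**Figure D1:**
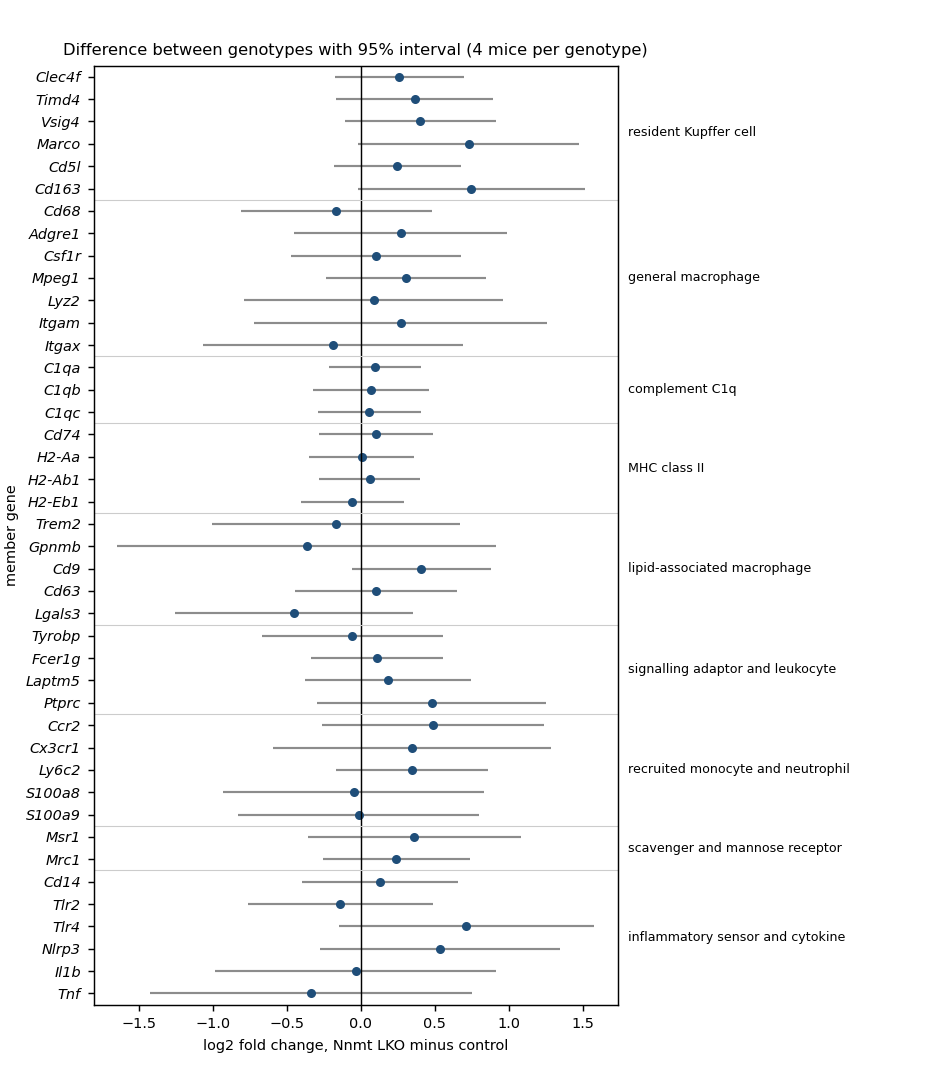
Log2 fold change of each of the 42 genes, Nnmt LKO minus control (horizontal axis), with its 95% interval as a bar, from edgeR's fit of 4 mice per genotype, grouped by role. All 42 intervals include 0, and the 6 resident Kupffer cell genes all lie to the right of 0, at 0.25 to 0.75.

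The 6 resident Kupffer cell genes had higher means in Nnmt LKO mice, with log2 fold changes between 0.25 and 0.75 (median 0.38), and none passed the test. Cd5l, a secreted protein of resident macrophages, was at 253, 191, 185 and 184 CPM in Nnmt LKO libraries a to d and at 126, 180, 140 and 238 CPM in control libraries a to d. Clec4f, a lectin that marks Kupffer cells, was at 96.1, 114, 109 and 118 CPM in the Nnmt LKO libraries and at 73, 117, 60.8 and 115 CPM in the control libraries. Control libraries a and c were the low ones for Clec4f, and b and d lay inside the Nnmt LKO range. The log2 fold changes were 0.25 for Cd5l (standard error 0.20, adjusted p = 0.642 in edgeR) and 0.26 for Clec4f (standard error 0.20, adjusted p = 0.631 in edgeR).

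Marco and Cd163, chosen here after their values were seen, had the largest fold changes of the 42. In GENCODE's annotation M21 of GRCm38, Marco (ENSMUSG00000026390) lies at chr1:120474538-120505024 on the minus strand and Cd163 (ENSMUSG00000008845) at chr6:124304656-124330527 on the plus strand. Marco, a scavenger receptor for bacteria and particles, was at 70.6, 55.7, 59.7 and 85.6 CPM in Nnmt LKO libraries and at 14.4, 43.5, 64.7 and 41.4 CPM in control libraries. Control c alone lay inside the Nnmt LKO range for Marco. Its difference on the log2 scale was 0.73 (standard error 0.34). In edgeR this gave p = 0.055 unadjusted and p = 0.407 adjusted, and the two-sided exact permutation test of the 8 libraries gave p = 0.0857 where 0.0286 is the smallest it can give.

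Cd163, the receptor that takes up haemoglobin bound to haptoglobin, was at 9.44, 18.7, 18.1 and 18.4 CPM in Nnmt LKO libraries and at 4.44, 15.3, 6.73 and 12.1 CPM in control libraries. Nnmt LKO a was the low library of its genotype, below control b and control d, while the other Nnmt LKO libraries were above all controls. Its difference was 0.75 on the log2 scale, with a standard error of 0.35 (edgeR, adjusted p = 0.407; exact permutation p = 0.171). Vsig4, a receptor for complement C3 fragments, was at 25.2 to 36.6 CPM in Nnmt LKO mice and 15.5 to 34.3 CPM in control mice. Timd4, a receptor for phosphatidylserine on dying cells, was at 4.25 to 5.31 CPM in Nnmt LKO mice and 2.01 to 4.87 CPM in control mice. For 5 of the 6 genes, all but Clec4f, control a was the lowest of the 8 libraries, against 15.1% of all genes.

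The 7 general macrophage genes divided into 5 above control and 2 below (median log2 fold change 0.10). Lyz2, a lysozyme of macrophages and neutrophils, was at 527, 216, 194 and 215 CPM in Nnmt LKO libraries a to d and at 177, 141, 308 and 460 CPM in control libraries. Mpeg1, a pore-forming protein of phagosomes, was at 264, 156, 155 and 161 CPM in Nnmt LKO libraries and at 98.8, 131, 145 and 221 CPM in control libraries. In each gene, Nnmt LKO a and control d were the high libraries of their genotype. The log2 fold changes were 0.09 for Lyz2 (standard error 0.40) and 0.30 for Mpeg1 (standard error 0.25). Lyz1, a near copy of Lyz2 whose reads could be exchanged with it, was at 0.833 CPM in Nnmt LKO mice and 0.748 CPM in control mice on average.

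Csf1r, the receptor for the growth factor that keeps macrophages alive, lay at 0.10 on the log2 scale (standard error 0.26), and Adgre1, which encodes F4/80, at 0.27 (standard error 0.33). Cd68, a protein of macrophage lysosomes, lay at -0.17 (standard error 0.29). Itgam and Itgax, the integrin chains CD11b and CD11c of myeloid and dendritic cells, lay at 0.27 (standard error 0.45) and -0.19 (standard error 0.40). These 5 genes ran from 2.17-fold to 5.03-fold between the lowest and highest of the 8 libraries.

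C1qa, C1qb and C1qc form the recognition part of the classical complement pathway and are made in the liver largely by macrophages. C1qb was at 151, 105, 101 and 90.9 CPM in Nnmt LKO libraries and at 87.2, 102, 102 and 135 CPM in control libraries. C1qa was at 115, 90.4, 82.8 and 85.6 CPM in Nnmt LKO libraries and at 74.5, 90.4, 80.9 and 104 CPM in control libraries. All 3 were highest in Nnmt LKO a and lowest in control a. Their log2 fold changes were 0.09, 0.07 and 0.06 for C1qa, C1qb and C1qc, with standard errors of 0.14 to 0.18, so these genes were among the most precisely compared. The 95% interval of the difference ran from -0.21 to 0.40 for C1qa.

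Of the MHC class II genes, Cd74, the invariant chain that guides class II molecules to the lysosome, was at 315, 229, 234 and 174 CPM in Nnmt LKO libraries and at 203, 204, 214 and 267 CPM in control libraries. H2-Ab1, a class II beta chain, was at 123, 94.2, 92.7 and 72.8 CPM in Nnmt LKO libraries and at 85.5, 84, 90.5 and 107 CPM in control libraries. The log2 fold changes were -0.06 for H2-Eb1, 0.00 for H2-Aa, 0.06 for H2-Ab1 and 0.10 for Cd74 (standard errors 0.16 to 0.17). All 4 were highest in Nnmt LKO a. The ratio of highest to lowest library had a median of 1.74, close to the 1.77 of all genes.

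The lipid-associated macrophage genes held the gene with the widest range of the 42, Gpnmb (ENSMUSG00000029816, chr6:49036546-49070929, plus strand). This membrane glycoprotein of lipid-laden macrophages was at 485, 144, 141 and 98.1 CPM in Nnmt LKO libraries a to d and at 171, 87.6, 275 and 584 CPM in control libraries a to d. The highest library was 6.67-fold above the lowest, and Nnmt LKO a and control d each stood far above the rest of their genotype. Lgals3, a galactoside-binding lectin, was at 175, 75.3, 75.1 and 56.8 CPM in Nnmt LKO libraries and at 122, 65.7, 149 and 188 CPM in control libraries. On the log2 scale Lgals3 lay lowest of the 42, at -0.46 with a standard error of 0.37 (edgeR, adjusted p = 0.645), and Gpnmb lay at -0.37 with a standard error of 0.58 (edgeR, adjusted p = 0.834).

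Trem2, a lipid-sensing receptor chosen here after its values were seen, was at 35.5, 18.1, 15.5 and 12 CPM in Nnmt LKO libraries and at 15.4, 12.2, 25.3 and 38.2 CPM in control libraries. Within each genotype, Trem2 and Gpnmb placed the 4 libraries in the same order. The tetraspanins Cd9 and Cd63, membrane organizers of the cell surface and of lysosomes, lay above control at 0.41 (standard error 0.21, unadjusted p = 0.0803 and adjusted p = 0.453 in edgeR) and 0.10 (standard error 0.25). The role thus held genes on either side of 0, with 2 above control and 3 below (median log2 fold change -0.17).

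Of the adaptors and leukocyte genes, Laptm5, a lysosomal protein of blood cells, was at 123, 72.7, 69.8 and 54.1 CPM in Nnmt LKO libraries and at 53.2, 63.8, 63.5 and 101 CPM in control libraries. Tyrobp, the adaptor DAP12 through which TREM2 signals, was at 47.7, 23.9, 22.3 and 24.7 CPM in Nnmt LKO libraries and at 23.4, 21.3, 35.2 and 43.6 CPM in control libraries. The log2 fold changes were 0.18 for Laptm5, -0.06 for Tyrobp, 0.11 for Fcer1g, the signalling chain of Fc receptors, and 0.48 for Ptprc, which encodes CD45 (standard errors 0.20 to 0.35). All 4 were highest in Nnmt LKO a.

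The genes of recruited cells were low. Cx3cr1, the fractalkine receptor, was at 15.5, 6.84, 4.54 and 4.31 CPM in Nnmt LKO libraries and at 3.56, 3.97, 8.51 and 8.56 CPM in control libraries. S100a9, a calcium-binding protein of neutrophils and monocytes, was at 9.04, 3.78, 2.89 and 4.1 CPM in Nnmt LKO libraries and at 3.36, 4.01, 4.44 and 8.22 CPM in control libraries. Nnmt LKO a was the highest library of all for each. Its partner S100a8 lay at -0.05 on the log2 scale (standard error 0.40) and S100a9 at -0.01 (standard error 0.37). Ccr2, the receptor by which monocytes leave the marrow, lay at 0.49 (standard error 0.34), Cx3cr1 at 0.34 (standard error 0.43) and Ly6c2, a surface mark of inflammatory monocytes, at 0.35 (standard error 0.23). Ly6c1, a near copy of Ly6c2, was at 2.21 and 1.77 CPM in the genotypes, close to the 2.99 and 2.35 CPM of Ly6c2, so the split of reads between them is uncertain.

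Mrc1, the mannose receptor of macrophages and sinusoidal endothelium, was at 27.2, 23.6, 27.2 and 29.7 CPM in Nnmt LKO libraries and at 17.5, 19.7, 17 and 37 CPM in control libraries. Controls a, b and c lay below all Nnmt LKO libraries and control d above all of them. Msr1, a scavenger receptor for modified lipoproteins, was at 13.3, 5.31, 5.83 and 9.62 CPM in Nnmt LKO libraries and at 4.63, 4.37, 9.28 and 8.25 CPM in control libraries. The log2 fold changes were 0.24 for Mrc1 (standard error 0.23) and 0.36 for Msr1 (standard error 0.33).

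Of the inflammatory genes, Cd14, which hands lipopolysaccharide to TLR4, was at 39.3, 21.9, 17 and 20.9 CPM in Nnmt LKO libraries and at 19.6, 18.8, 28.9 and 23.4 CPM in control libraries. Tlr2, a receptor for bacterial lipoproteins, was at 13.1, 7.57, 5.93 and 5.86 CPM in Nnmt LKO libraries and at 8.44, 5.84, 9.35 and 12.2 CPM in control libraries. Tlr4, the lipopolysaccharide receptor, lay at 0.71 on the log2 scale with a standard error of 0.39 (edgeR, adjusted p = 0.48) at means of 1.99 and 1.21 CPM. Nlrp3, the sensor of an inflammasome, lay at 0.53 (standard error 0.37), while the cytokine genes Il1b and Tnf lay at -0.04 (standard error 0.43) and -0.34 (standard error 0.50). The cytokine and inflammasome genes were read at low levels, with Tnf at 0.714 CPM in Nnmt LKO mice and 0.904 CPM in control mice.

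Mice of the same genotype differed widely in these genes. The ratio of the highest to the lowest of the 8 libraries, which spans both genotypes, had a median of 2.68 over the 42 genes and 1.77 over all genes. Nnmt LKO a was the highest library for 28 of the 42, against 20.6% of all genes, and control d for 8 of the 42, against 11.1% of all genes. Control a was the lowest library for 17 of the 42, against 15.1% of all genes. The summed level of the 42 genes was 3909, 2305, 2236 and 2081 CPM in Nnmt LKO libraries a to d and 1930, 1967, 2496 and 3637 CPM in control libraries a to d.

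**Figure D2:**
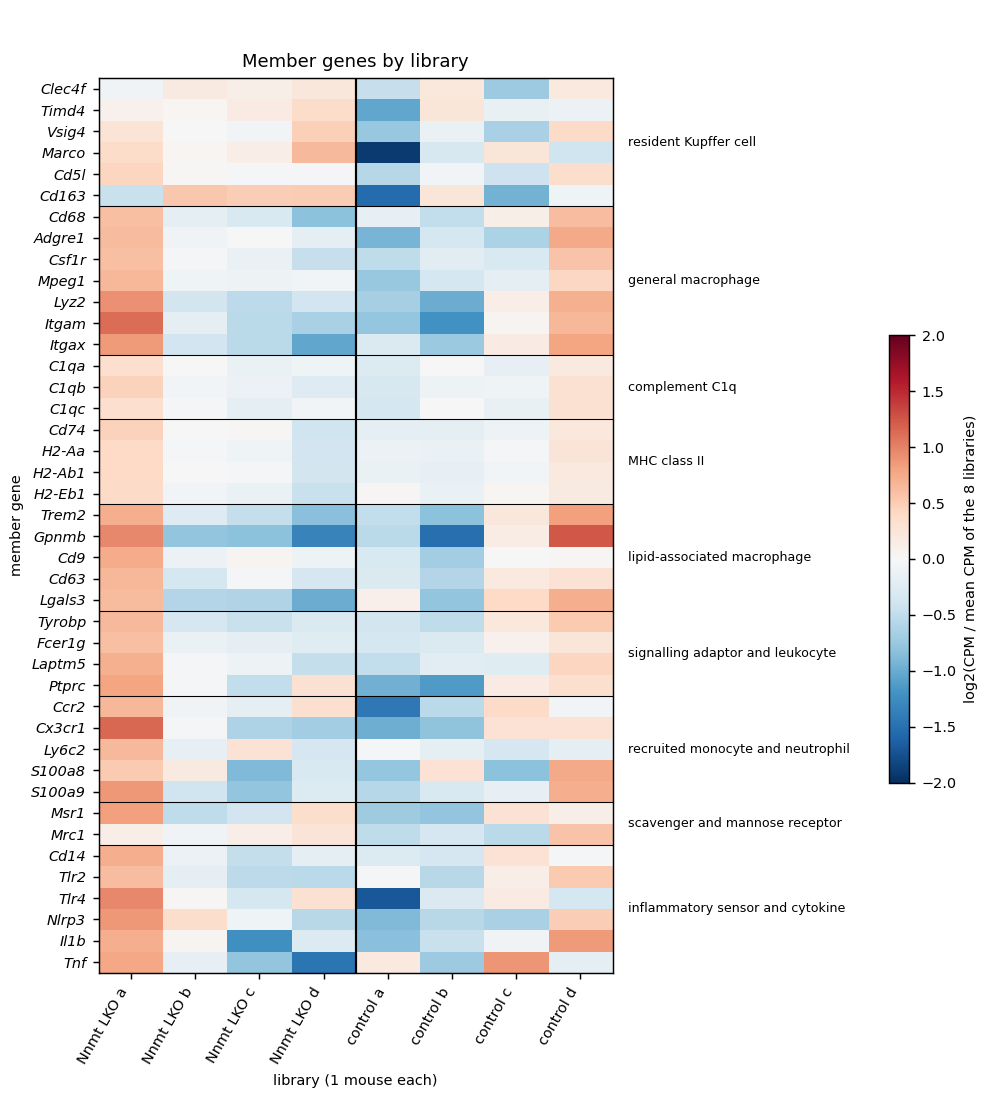
Level of each of the 42 genes in each of the 8 libraries (columns, 1 mouse each), as the log2 of its CPM over the mean CPM of the 8 libraries, grouped by role, with red above and blue below that mean. Nnmt LKO a is the highest library for 28 genes and control d for 8, and the resident Kupffer cell genes at the top do not share the red of Nnmt LKO a to the same degree.

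Nnmt LKO a was set against the median of the other 3 Nnmt LKO libraries, gene by gene. This ratio had a median of 1.76 over the 42 genes and 0.99 over all genes. It was largest for Gpnmb at 3.45, Cx3cr1 at 3.42 and Itgam at 3.14, and the lipid-associated genes had a median of 2.29, from 1.79 for Cd9 to 3.45 for Gpnmb. The resident Kupffer cell genes had a median of 1.06, with Cd163 at 0.51, Clec4f at 0.84, Timd4 at 0.94, Marco at 1.18, Vsig4 at 1.22 and Cd5l at 1.37. The ranges of the lipid-associated and resident genes did not overlap within this library, and as values of 1 mouse they have no test. This separation was not particular to the lipid-associated genes. The general macrophage genes (1.63 to 3.14) and the adaptor and leukocyte genes (1.72 to 1.99) also lay above the resident range. So did the genes of recruited cells (1.66 to 3.42) and the inflammatory genes (1.88 to 2.96). The median was 1.34 for the C1q genes and 1.39 for the MHC class II genes, whose ranges overlapped that of the resident genes. The scavenger and mannose receptors overlapped the resident genes as well. So did 14 genes of lipid-associated macrophages and lysosomes outside the 42, at 0.73 to 4.01.

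Control d, set against the median of the other 3 control libraries, gave a median ratio of 1.64 over the 42 genes and 1.01 over all genes. Gpnmb again had the largest ratio, 3.42, followed by S100a8 at 2.90, Itgam at 2.68 and Adgre1 at 2.61. In this mouse the resident Kupffer cell genes had the same median as the 42 together, 1.64, with a range from 0.95 for Marco to 2.04 for Vsig4. Genes of endothelial cells were also high in control d. All 5 of Stab2, Clec4g, Lyve1, Pecam1 and Kdr had their highest level of the 8 libraries there. They were at 1.38 to 1.80 times the median of the other controls. In Nnmt LKO a, those 5 genes were at 0.77 to 1.10 times the median of the other Nnmt LKO libraries. The 5 hepatocyte genes were at 0.55 to 0.82 times in Nnmt LKO a and 0.71 to 1.14 times in control d, and the part of the liver's cell makeup in these differences was not tested.

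**Figure D3:**
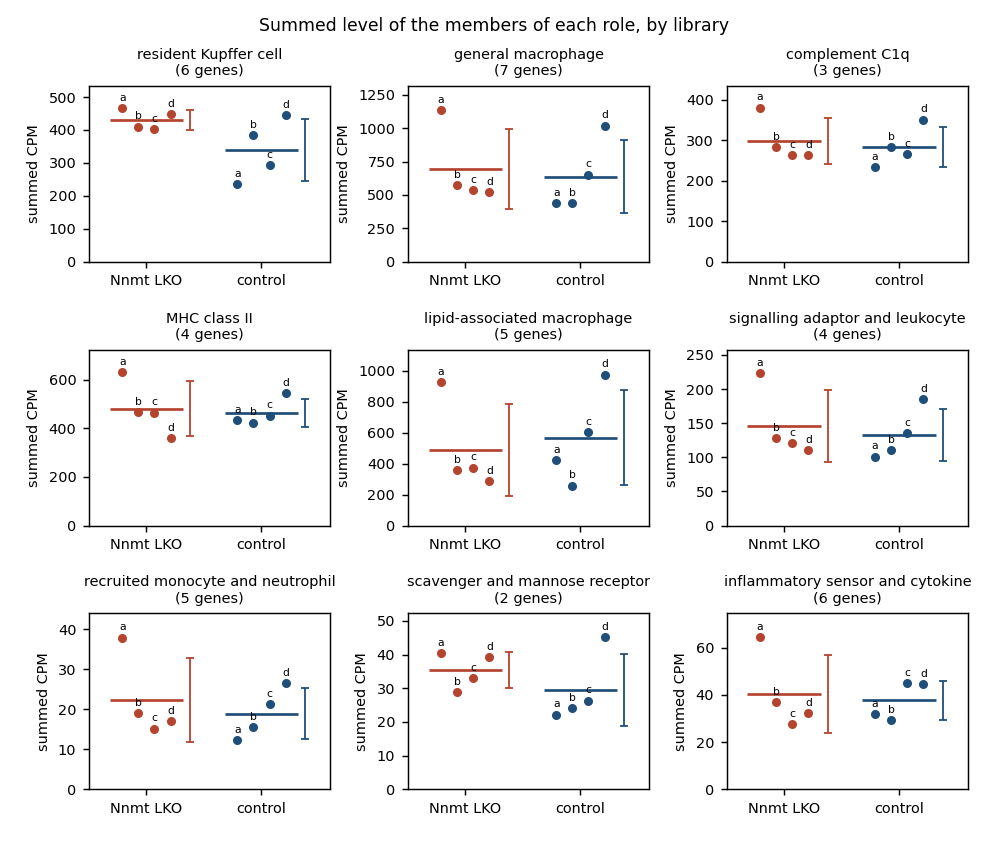
Summed CPM of the genes of each role (vertical axes, from 0) in each library, with letters for the libraries, horizontal lines for the means and bars for the SD of 4 mice per genotype. For the lipid-associated genes, Nnmt LKO a at 927 CPM and control d at 975 CPM stand above the other 6 libraries at 258 to 605 CPM. Gpnmb alone gives 485 CPM of the sum in Nnmt LKO a and 584 CPM in control d. The resident Kupffer cell genes lie between 402 and 465 CPM in Nnmt LKO mice and between 236 and 445 CPM in control mice.

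The comparison of genotypes depended on these 2 libraries. Both were singled out here as the high libraries of their genotype for these same genes. The direction in which leaving either out moved the median was therefore set by that choice. The genes called without them carry the same limit and are no separate result. Without Nnmt LKO a, the median log2 fold change of the 42 genes was -0.11 (0.00 over all genes), with 16 genes above control and 26 below. At an unadjusted p of 0.05 in edgeR, 3 of the 42 were then lower in Nnmt LKO mice (7.42% of all genes), namely Gpnmb at -1.13, Lgals3 at -0.92 and Itgax at -0.72, and 1 was higher (5.84% of all genes), Cd163 at 0.93. Without control d, the median was 0.37 (0.03 over all genes), with 39 genes above control and 3 below. Then 7 of the 42 were higher (6.42% of all genes), namely Nlrp3 at 0.93, Cd163 at 0.88, Adgre1 at 0.75, Vsig4 at 0.67, Mrc1 at 0.57, Mpeg1 at 0.56 and Cd5l at 0.45, and 0 were lower (7.6% of all genes). Leaving out another control also moved single genes past an unadjusted p of 0.05, all higher in Nnmt LKO mice. They were Marco without control a (4.12% of all genes higher, 3.97% lower), Timd4 and Cd163 without control b (4.92% higher, 5.23% lower), and Ccr2, Marco and Tlr4 without control c (7% higher, 7.14% lower). None of the genes called in these fits had an adjusted p under 0.05 in edgeR, and the smallest was 0.0943, for Mrc1 without control d.

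**Figure D4:**
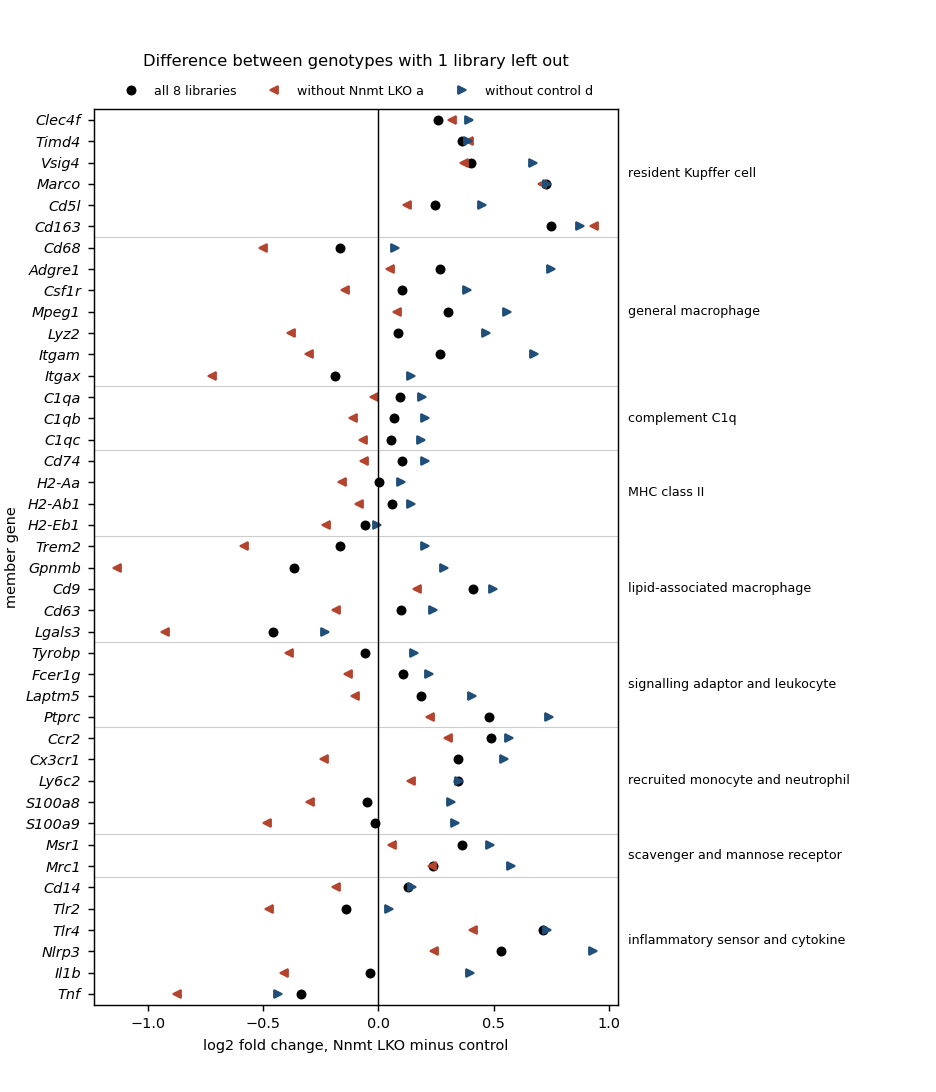
Log2 fold change of each of the 42 genes, Nnmt LKO minus control (horizontal axis), with all 8 libraries (circles), without Nnmt LKO a (red triangles) and without control d (blue triangles). The median moves from 0.11 to -0.11 and 0.37. The 6 resident Kupffer cell genes stay above 0 in the 3 fits, as do Mrc1, Msr1 and some genes of other roles.

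The roles moved by different amounts when a library was left out. For Nnmt LKO a and control d, these shifts follow from the ratios of each role given above and are no separate result. The 6 resident Kupffer cell genes stayed above control with any 1 library left out. This was not particular to them. Adgre1, Mpeg1, Cd9, Ptprc, Ccr2, Ly6c2, Msr1, Mrc1, Tlr4 and Nlrp3 also stayed above control in every such fit. The median of the 6 resident genes was 0.38 without Nnmt LKO a, 0.56 without control d and 0.23 without control a. Without control a, the lowest library for 5 of the 6, Marco went from 0.73 to 0.47, Cd163 from 0.75 to 0.52, Vsig4 from 0.40 to 0.28 and Timd4 from 0.36 to 0.18. Of the 5 lipid-associated genes, 4 lay below control without Nnmt LKO a (median -0.58) and 4 above it without control d (median 0.23). All 3 C1q genes and all 4 MHC class II genes lay below control without Nnmt LKO a, down to -0.11 for C1qb and -0.23 for H2-Eb1.

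Genes outside the 42 that act with them were read from further lists of 114 genes, of which 113 were found and 109 tested. None passed at an adjusted p of 0.05 in edgeR. At an unadjusted p of 0.05, 4 of the 109 were higher in Nnmt LKO mice (5.45% of all genes) and 1 lower (7.13% of all genes). Their median log2 fold change was 0.11 (73 above control, 36 below), -0.07 without Nnmt LKO a (43 above, 66 below) and 0.20 without control d (86 above, 23 below). Pros1, protein S, which bridges dying cells to clearance receptors and is also made by hepatocytes, was at 37.6 ± 5.98 CPM (SD, n = 4) against 26.2 ± 4.60 CPM (SD, n = 4), without overlap (log2 fold change 0.52, standard error 0.15, adjusted p = 0.186 in edgeR). Among macrophage growth and transcription factors, Maf had the smallest p (log2 fold change 0.43, standard error 0.17, adjusted p = 0.332 in edgeR).

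In the other lists, Tlr7, a sensor of single-stranded RNA, had a log2 fold change of 0.72 (adjusted p = 0.269 in edgeR) and Ctsl, a lysosomal protease, one of -0.35 (adjusted p = 0.366 in edgeR). The genes with the smallest p in 5 further lists lay between -0.22 and 0.52 on the log2 scale: Hmox1, which breaks down haem, at 0.37, Fcgr3, an Fc receptor, at 0.40, Cd40, a costimulatory receptor, at 0.52, Gsdmd, the pore protein of pyroptosis, at -0.22, and Cr1l, a complement regulator, at -0.16. None of these 5 had an unadjusted p under 0.05 in edgeR. The 14 further genes of lipid-associated macrophages and lysosomes held 7 above and 7 below control, 4 above and 10 below without Nnmt LKO a, and 9 above and 5 below without control d. The 10 further Kupffer cell genes held 8 above and 2 below control in each of these fits. Their median log2 fold change was 0.25, with 0.12 without Nnmt LKO a and 0.36 without control d.

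Promoters are shown for 2 genes that were high in Nnmt LKO a and control d, Gpnmb and Trem2, and for 2 resident Kupffer cell genes, Clec4f and Cd163. Each runs from 250 bases before to 50 bases after the RefSeq start, on the gene's strand, in GRCm38.p6: Gpnmb at chr6:49036268-49036567 on the plus strand, Trem2 at chr17:48346151-48346450 on the plus strand, Clec4f at chr6:83656067-83656366 on the minus strand and Cd163 at chr6:124304401-124304700 on the plus strand. Capitals mark a match to GAGGAA, read on either strand, the core letters bound by PU.1, a transcription factor of myeloid cells.
Gpnmb: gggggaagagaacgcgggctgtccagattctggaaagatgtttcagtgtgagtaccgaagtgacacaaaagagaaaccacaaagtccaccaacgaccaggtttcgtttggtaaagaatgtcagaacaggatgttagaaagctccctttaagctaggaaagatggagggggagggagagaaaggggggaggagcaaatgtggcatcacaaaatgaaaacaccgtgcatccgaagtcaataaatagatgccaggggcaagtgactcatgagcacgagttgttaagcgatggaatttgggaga
Trem2: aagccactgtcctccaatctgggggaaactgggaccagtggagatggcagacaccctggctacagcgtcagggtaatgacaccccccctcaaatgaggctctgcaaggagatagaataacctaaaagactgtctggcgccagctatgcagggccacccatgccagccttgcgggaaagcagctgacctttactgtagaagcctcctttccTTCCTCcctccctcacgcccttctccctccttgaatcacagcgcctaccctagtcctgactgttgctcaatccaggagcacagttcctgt
Clec4f: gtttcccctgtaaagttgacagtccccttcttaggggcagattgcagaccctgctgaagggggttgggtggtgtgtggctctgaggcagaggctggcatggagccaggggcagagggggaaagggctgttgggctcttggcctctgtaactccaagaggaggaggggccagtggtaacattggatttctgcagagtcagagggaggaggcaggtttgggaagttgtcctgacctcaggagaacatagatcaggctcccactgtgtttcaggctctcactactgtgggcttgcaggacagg
Cd163: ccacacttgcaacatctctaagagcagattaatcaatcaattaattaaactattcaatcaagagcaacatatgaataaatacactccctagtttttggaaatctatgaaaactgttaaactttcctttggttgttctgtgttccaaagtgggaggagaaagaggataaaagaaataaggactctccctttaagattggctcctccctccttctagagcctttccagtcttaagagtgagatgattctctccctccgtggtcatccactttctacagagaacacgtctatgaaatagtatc
Only Trem2 of these 4 holds the letters, on the minus strand, starting 40 bases before its start. RefSeq held promoters for 33 of the 42 genes, 36 promoters in all. Ptprc, Nlrp3 and Ly6c2 entered with 2 promoters each. Those of Ptprc overlapped, as did those of Ly6c2, which both held GAGGAA and were counted separately. The letters GAGGAA stood in 17 of the 36 (47.2%) and in 28.3% of all 32851 promoters. The E-box CACGTG, bound by TFEB and MITF, stood in 0 of the 36 and in 7.15% of all promoters, and CATGTG, which MITF also binds, stood in 8 of the 36 (22.2%) and in 14.2% of all promoters. Each of the 3 motifs was read on either strand, and as their letters differ, no match counted for more than 1 of them. A match describes letters and is not a measured binding site.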

How the data were processed

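Liver RNA-seq of 4 Nnmt LKO and 4 control mice was used. Per the paper, HISAT2 served the authors for alignment and quantification, and the submitters' processing notes name HISAT2, StringTie and mm10 without versions. The values the authors deposited are whole numbers for each gene and library and were treated as raw counts; whether StringTie estimated them is not given in the sources used here. Annotation and use of strand are not given in the sources used here, so reads of overlapping or closely similar genes may be divided differently by another counting method. The paper names a KAPA library kit and the sample labels a NEBNext kit. All 8 columns were used. They carry genotypes but no mouse numbers.

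The 42 genes, their roles, the further lists and the tests were chosen with earlier results of these data known. Genes were kept by filterByExpr of edgeR 4.0.16 in R 4.3.3 (minimum count 10), scaled by TMM and tested by quasi-likelihood. A standard error is the one implied by the F statistic. p-values were Benjamini-Hochberg adjusted over all 15291 tested genes, at a threshold of 0.05. DESeq2 1.42.0 was an alternative. Exact permutation tests (scipy 1.17.1) were two-sided on log2(CPM + 0.5). The scripts were tested on simulated data first. No 2 libraries of the same genotype were copies of one another, and pairs across genotypes were not compared.

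Values in every library were planned for the 2 genes of each role with the highest mean CPM and for any of the 42 at an unadjusted p under 0.05 or without overlap, of which there were none. Of the further lists, the gene with the smallest p was named. For 1 list that gene is not reported here. Names outside this rule are marked as chosen with their values in view. Promoters came from RefSeq (GRCm38.p6). Clec7a was not analysed here.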

Additional observations from a re-analysis of the deposited data

Results flagged for a closer look

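For each of the 42 genes, the most distant library of a genotype was set against the other 3. Its gap to the nearest of them, divided by the whole range, exceeded the 95% critical value of Dixon's ratio for 4 samples in 13 of the 84 groups (15.5%), against 6.7% of the groups of all genes tested, where chance gives about 1 in 20. Of these 13, 10 were Nnmt LKO a, which stood apart for 23.8% of the 42 genes and 4.19% of all genes. It stood above the other Nnmt LKO libraries for 9 genes: Gpnmb at 485 CPM against 98.1 to 144 CPM, Lyz2 at 527 CPM against 194 to 216 CPM, Mpeg1 at 264 CPM against 155 to 161 CPM, Cd5l at 253 CPM against 184 to 191 CPM, Lgals3 at 175 CPM against 56.8 to 75.3 CPM, Cd9 at 90.3 CPM against 49.9 to 56.5 CPM, Tyrobp at 47.7 CPM against 22.3 to 24.7 CPM, Fcer1g at 38.8 CPM against 21.6 to 23.4 CPM, and Itgam at 24.5 CPM against 7.27 to 9.98 CPM. It stood below them for Cd163, at 9.44 CPM against 18.1 to 18.7 CPM. Cd163 was thus low in the library in which 28 of the 42 genes had their highest level. The other 3 were control d, at 267 CPM against 203 to 214 CPM for Cd74, at 37 CPM against 17 to 19.7 CPM for Mrc1, and at 3.07 CPM against 1.18 to 1.48 CPM for Nlrp3. The genes are not independent of each other, since all were read from the same 8 livers.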

How the results depend on the processing

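The 42 log2 fold changes were recomputed under 12 alternatives: edgeR with DESeq2's size factors, with library size only, without the filter on low counts, DESeq2's Wald test, and each of the 8 libraries left out in turn. Of the 504 pairs of a gene and an alternative, 451 kept their direction and 53 changed it, and none brought a gene to an adjusted p under 0.05 (smallest 0.0943). With library size only, the direction turned for H2-Eb1 (0.019), Tyrobp (0.019), S100a8 (0.0400), S100a9 (0.083) and Il1b (0.042), all close to 0, where the median over all genes was 0.07. With 1 library left out, 17 genes kept their direction in all 8 fits and 25 did not, 14 of them without Nnmt LKO a and 9 without control d. For these 25, the log2 fold changes over the 8 fits ran from -0.50 to 0.0703 for Cd68, -0.14 to 0.38 for Csf1r, -0.38 to 0.47 for Lyz2, -0.30 to 0.67 for Itgam, -0.72 to 0.14 for Itgax, -0.019 to 0.19 for C1qa, -0.11 to 0.20 for C1qb, -0.066 to 0.18 for C1qc and -0.064 to 0.22 for Cd74. Further, they ran from -0.16 to 0.11 for H2-Aa, -0.085 to 0.17 for H2-Ab1, -0.23 to 0.056 for H2-Eb1, -0.58 to 0.20 for Trem2, -1.13 to 0.29 for Gpnmb, -0.18 to 0.23 for Cd63, -0.39 to 0.15 for Tyrobp, -0.13 to 0.22 for Fcer1g and -0.10 to 0.41 for Laptm5. The remaining ranges were -0.23 to 0.54 for Cx3cr1, -0.30 to 0.31 for S100a8, -0.48 to 0.33 for S100a9, -0.19 to 0.27 for Cd14, -0.47 to 0.045 for Tlr2, -0.41 to 0.40 for Il1b and -0.87 to 0.011 for Tnf. The count of genes higher at an unadjusted p under 0.05 was 0 in edgeR (5.45% of all genes) and 2 in DESeq2's test (6.65%). It was 1 with library size only (5.35%) and 0 to 7 with 1 library left out, with 7 without control d (6.42%). The count lower was 0 in edgeR (7.13%) and 0 to 3 in the alternatives, with 3 without Nnmt LKO a (7.42%). The median log2 fold change was 0.11 with all libraries and ran from -0.11 to 0.37 with 1 library left out. The cause of these changes was not tested. With 4 mice per genotype, some 95% intervals still held differences of more than 1 on the log2 scale, in both directions. Among them, those of Marco, Cd163 and Tlr4 reached up to 1.47, 1.51 and 1.57. Those of Gpnmb, Tnf and Lgals3 reached down to -1.65, -1.43 and -1.26. The median standard error of the 42 genes was 0.28. No paired analysis was possible because the columns of the table carry no mouse numbers. The letters of the libraries follow the order of the columns only.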

Other observations

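Genes of other cell types were read beside the macrophage genes, and some of them, chosen here after their values were seen, stood further apart between genotypes than any of the 42. Cd8a, the co-receptor of cytotoxic T cells, was at 1.21, 0.892, 0.716 and 0.851 CPM in Nnmt LKO libraries a to d and at 0.362, 0.238, 0.415 and 0.333 CPM in control libraries a to d. Gzma, a protease of cytotoxic granules, was at 0.49 to 0.558 CPM in Nnmt LKO mice and at 0.202 to 0.238 CPM in control mice, and Cd3g, a chain of the T cell receptor complex, at 0.766 to 1.19 CPM against 0.29 to 0.666 CPM. None of the 3 overlapped between genotypes, as for 8.16% of all genes. Their log2 fold changes were 1.44, 1.26 and 1.17, and the adjusted p was 0.106, 0.171 and 0.194 in edgeR and 0.00349, 0.0284 and 0.0428 in DESeq2. Of all genes, 0.32% had an adjusted p under 0.05 in edgeR and 3.32% in DESeq2. Of the other 3 T cell genes, Cd4 was at 0.60, Cd3e at 0.08 and Cd3d at -0.27 on the log2 scale. Gzma was read with genes of NK cells. The others of these were Klrb1c at 0.05, Prf1, the pore protein of cytotoxic cells, at -0.04, and Ncr1 at -0.23. None of these other T cell and NK cell genes had an unadjusted p under 0.05 in edgeR. At these levels, near 1 CPM or below, the values rest on few reads, and the neutrophil gene Ly6g and the chemokine gene Ccl12 were at 0 counts in all 8 libraries.

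The 5 genes of stellate cells and fibroblasts lay above control, between 0.01 and 0.41 on the log2 scale, but 2 of them lay below it without Nnmt LKO a. With all libraries, 3 of the 5 were higher at an unadjusted p under 0.05 in edgeR (5.45% of all genes), without passing the adjustment. These were Dcn, a matrix proteoglycan (0.41, adjusted p = 0.32 in edgeR), Reln (0.41, adjusted p = 0.368 in edgeR), and Lrat, which stores vitamin A as an ester (0.34, adjusted p = 0.366 in edgeR). In Nnmt LKO a, these 5 genes were at 1.07 to 4.27 times the median of the other Nnmt LKO libraries, with a median of 1.19; the highest was Col1a1, a collagen chain. Col1a1, Reln and Lrat are named here after their values were seen. The 14 further genes of lipid-associated macrophages and lysosomes were at 0.73 to 4.01 times there, and the 10 further Kupffer cell genes at 0.71 to 1.99 times, so the ranges overlapped. Epcam, of bile duct cells, had a log2 fold change of 0.80 (adjusted p = 0.306 in edgeR), the largest of the 4 bile duct genes read. The others were Krt7 at 0.30, Krt19 at 0.21 and Sox9 at 0.04. Epcam in Nnmt LKO a was at 2.17 times the median of the other Nnmt LKO libraries. Without that library, 2 of the 4 lay above control and 2 below, with a median of 0.04.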
